A study of Mus musculus with 4 samples.

Results

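The genes described here are 9 components of Hedgehog signal reception and transduction in the mouse: the receptor Ptch1, the co-receptor Boc, the ligand-binding inhibitor Hhip, the transducer Smo, the ciliary kinesin Kif7, the inhibitor Sufu and the transcription factors Gli1, Gli2 and Gli3. They were chosen by name, 9 of the 21938 protein-coding genes on assembled chromosomes in the GENCODE annotation of mm10, and all 9 were found. For each gene, every peak of CTCF or of the cohesin subunit RAD21 within 5 kb of the gene body was collected. Sites were called promoter sites when the summit lay within 1 kb of the gene start, otherwise exonic or intronic by the summit, and otherwise flanking. The nearest site outside the gene body was then taken on either side.

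CTCF and RAD21 were profiled by ChIPmentation, in which adapters are inserted into chromatin held on the antibody beads, in E12.5 whole limbs of the B6CBAF1 strain. The genotype was TgN(38-40)/Wt; del(CS38-40)-/-, so that all of these embryos carried the region CS38-40 transgene on a single chromosome 10 and lacked this region at both native HoxD loci on chromosome 2. The transgene comes from 1 integration. There were 2 biological replicates per antibody, giving 4 peak lists on mm10, and the fifth list held RAD21 peaks of wild-type E12.5 limbs, from a single ChIP-seq library that the group had made for earlier work. Input samples of both the transgenic limbs and of limbs with a wild-type CS38-40 region had no peak list and were not used here. No CTCF list of wild-type limbs was analysed here, so genotype, protocol and study cannot be told apart wherever the RAD21 lists differ. Of the 9 genes, Gli1 alone lies on a chromosome altered by the transgene, and none lies on chromosome 2.

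In the limb bud, Sonic hedgehog is released from posterior mesenchyme. Without ligand, Ptch1 keeps Smo inactive, and Sufu and Kif7 help to turn Gli3 and Gli2 into repressors. Ligand binding, aided by Boc, frees Smo, and the Gli factors then activate targets that include Gli1, Ptch1 and Hhip themselves. CTCF binds a long directional DNA motif, and cohesin extruding a chromatin loop tends to halt at CTCF bound in 1 orientation, so that the 2 proteins are often found together at loop anchors and domain borders. Gli3 has the most prominent role of the 3 Gli factors in digit number and identity.

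The lists held 23829 and 26264 CTCF peaks, 4102 and 14787 RAD21 peaks of the transgenic limbs, each in replicate 1 and 2, and 20874 wild-type RAD21 peaks. The values given for a peak are the fold enrichment computed by MACS2, the pileup at the summit over the local expectation, and its percentile, the share of peaks in the same list with a fold at or below it. Folds were compared only within a list, because the lists differ in depth, which is unknown, and in signal. An absent peak means a site below the caller's threshold, not an unbound site. RAD21 replicate 1 had the shortest list, and a missing peak there says least.

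Together the 9 genes had 52 peaks at 24 sites, counting overlapping peaks of the 5 lists as a single site. Sufu had 5 sites, Gli1 had 4, Boc, Smo, Gli2 and Gli3 had 3 each, Hhip had 2, Kif7 had 1 and Ptch1 had none. By place, 9 were promoter sites, 11 intronic, 1 exonic and 3 flanking. CTCF was called at 17 of the 24 sites, at 12 of them in both replicates. RAD21 of the transgenic limbs was called at 7 sites, all in replicate 2 and 1 also in replicate 1, and wild-type RAD21 at 15. Of all 33037 merged sites, 86.8% had CTCF, and 63.6% had it in both replicates. RAD21 of the transgenic limbs was at 45.1% of them and wild-type RAD21 at 62.9%.

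**Figure D1:**
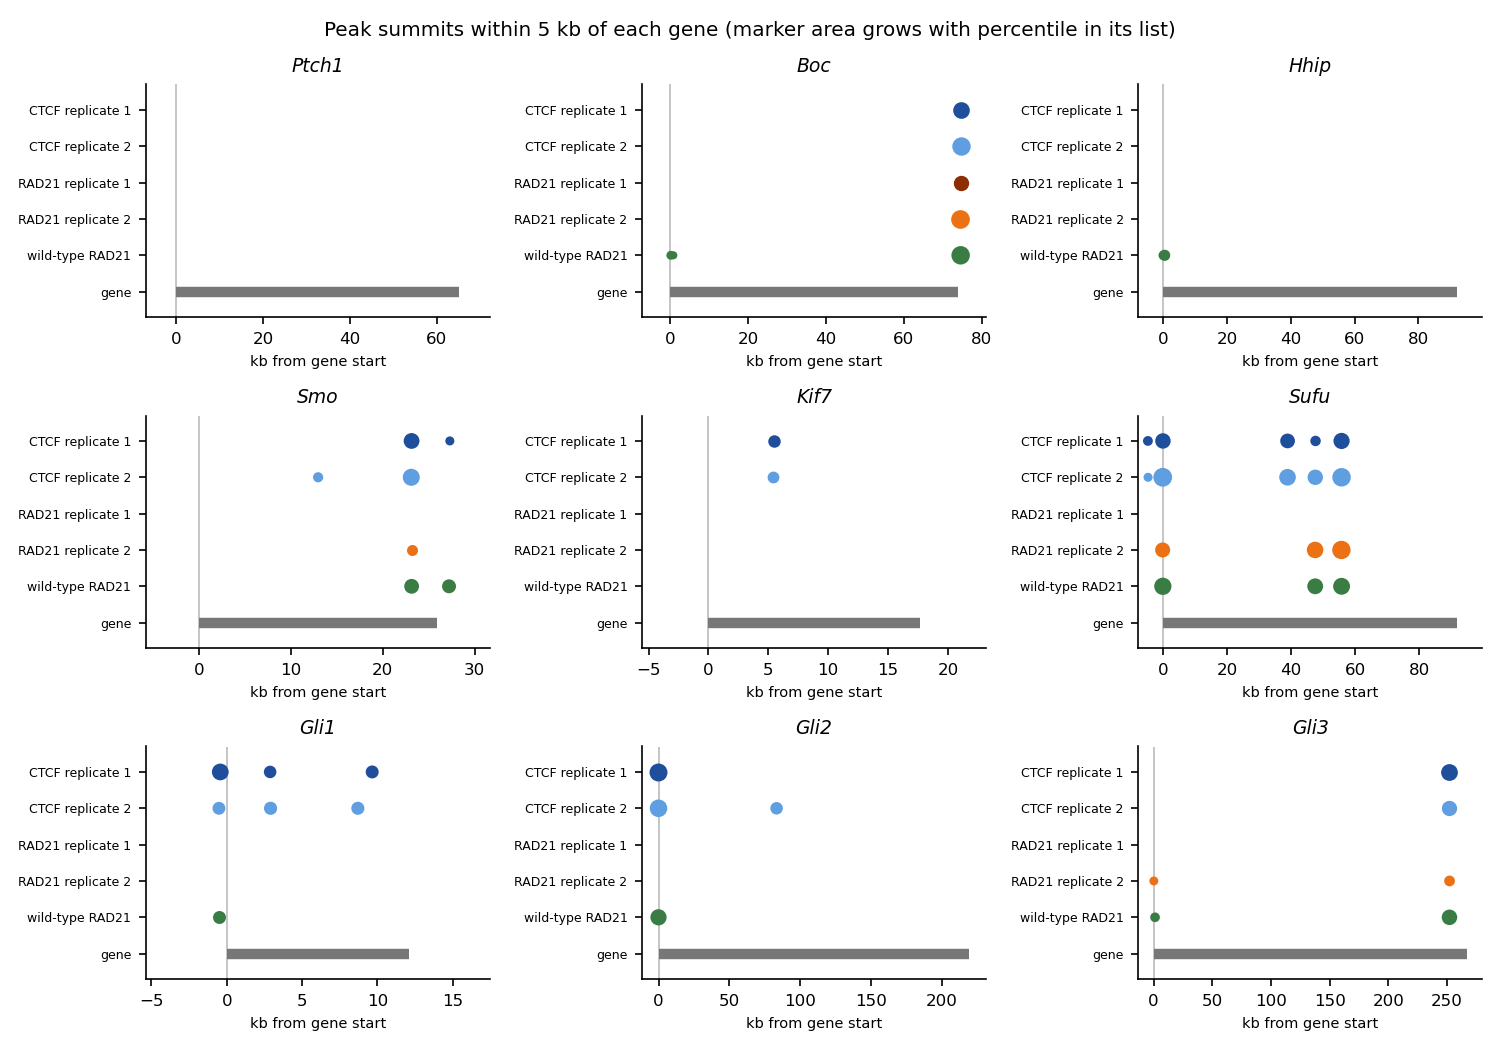
Positions of peak summits (horizontal axis, kb from the gene start in the direction of transcription) in each of the 5 peak lists (rows) for the 9 genes, with the gene body as a grey bar and a marker area that grows with the percentile of the peak in its list. Sufu carries 5 sites, 3 of them with RAD21, while Ptch1 has no peak in any list and Hhip has peaks in the wild-type RAD21 list alone.

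The peaks sorted the genes into 3 kinds. Sufu, Gli1 and Gli2 had a CTCF peak at the promoter, Boc, Smo, Kif7 and Gli3 had CTCF elsewhere, mostly towards the 3′ end, and Ptch1 and Hhip had none within 5 kb. CTCF motif matches at sites called in both CTCF replicates are shown next, since these sequences carry the direction of each site. They are reference sequence of mm10, read 5′ to 3′ along the strand of the match, with the 19 bp match in capitals and 15 bases on either side. The first 7 lie within 50 bp of the summit.
Sufu promoter, chr19:46396727-46396775, plus strand: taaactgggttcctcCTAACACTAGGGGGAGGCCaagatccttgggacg
Sufu intron 3, chr19:46444411-46444459, minus strand: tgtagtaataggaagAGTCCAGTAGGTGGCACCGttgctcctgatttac
Sufu intron 6, chr19:46452656-46452704, minus strand: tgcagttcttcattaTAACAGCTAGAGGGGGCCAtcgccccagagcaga
Gli2 promoter, chr1:119053700-119053748, minus strand: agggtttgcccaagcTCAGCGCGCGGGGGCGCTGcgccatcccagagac
Gli1 intron 2, chr10:127339001-127339049, plus strand: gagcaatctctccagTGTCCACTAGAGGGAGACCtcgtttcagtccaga
Kif7 coding exon, chr7:79710207-79710255, plus strand: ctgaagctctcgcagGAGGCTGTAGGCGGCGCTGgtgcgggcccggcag
Boc downstream flank, chr16:44484244-44484292, plus strand: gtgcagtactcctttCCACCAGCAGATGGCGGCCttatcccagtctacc
The other 4 were found only by a search of 100 bp around the summit, which was added after the data were seen and has a higher threshold. That search no longer called 2 of the 7 above, Sufu intron 6 and the Gli2 promoter, and at Kif7 its best match was on the minus strand, so the direction at Kif7 turns with the search.
Gli1 promoter, chr10:127342463-127342511, minus strand: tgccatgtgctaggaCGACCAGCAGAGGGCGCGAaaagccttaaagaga
Sufu intron 3, chr19:46435785-46435833, plus strand: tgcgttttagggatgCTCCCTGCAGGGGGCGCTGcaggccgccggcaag
Smo intron 9, chr6:29758657-29758705, minus strand: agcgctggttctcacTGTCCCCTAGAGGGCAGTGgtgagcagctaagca
Gli3 intron 12, chr13:15715307-15715355, minus strand: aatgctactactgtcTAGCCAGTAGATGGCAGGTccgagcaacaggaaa

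The model behind these matches has the consensus NNNCCACNAGGGGGCGCNN, where N is a position without a base of at least 50%, and was searched on both strands. A match is a score that 5% of windows 600 bp away from CTCF summits reach. Within 50 bp of the summit, 8 of the 17 CTCF sites of the Hedgehog genes held one, against 62.0% of all 28683 CTCF sites. Within 100 bp, with a threshold of its own, 12 of the 17 did, against 85.1% of all. Of the 7 sites without CTCF, none had a match within 50 bp and 1, at Hhip, had one within 100 bp. By the search within 100 bp, 5 of the 6 sites with RAD21 of the transgenic limbs and 7 of the 11 without had a match, beside 90.3% and 80.4% of all CTCF sites. The Kif7, Gli2 promoter and Sufu intron 6 matches were the weakest shown, at the 18.0, 18.1 and 18.4 percentile of the best scores in the peaks that trained the model, while the Boc match stood at the 68.0 percentile. A match is a description of the sequence and not a measured binding site.

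Ptch1, the receptor, spans chr13:63508328-63573598 on the minus strand and is 65.3 kb long. No peak of any list fell within 5 kb of it. Among the 3898 protein-coding genes of its length or more, 551, or 14.1%, likewise had no site of any list in the window. It lay with the DNA repair gene Fancc in a stretch of 263 kb between neighbouring sites, as long as which were 5.40% of the 33016 gaps between sites of all lists. The nearest CTCF peak upstream was 123 kb away, at a fold of 4.46 and 9.88 in replicates 1 and 2. Downstream, replicate 2 had one at 75.4 kb with a fold of 6.26, and in replicate 1 the first was at 143 kb with a fold of 10.1, at the 94.6 percentile. Both lists of RAD21 had a wider gap than CTCF. RAD21 of replicate 2 was first met 242 kb upstream and 176 kb downstream, and wild-type RAD21 at 241 kb and 152 kb.

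Boc, the co-receptor that helps to present ligand to Ptch1, lies at chr16:44485049-44558897 on the minus strand, 73.8 kb long. Its 3′ flank held the only site of the Hedgehog genes called in all 5 lists, 0.71 to 0.79 kb past the gene end, at chr16:44484078-44484590. The fold was 7.48 and 11.7 for CTCF in replicates 1 and 2, 6.25 and 11.6 for RAD21, and 8.47 for wild-type RAD21. These values were at the 68.0, 88.9, 54.1, 92.2 and 89.7 percentile, so the site stood above the middle of every list. The RAD21 summits were within 43 bp of a CTCF summit. Of all merged sites, 11.0% were in all 5 lists. At the Boc start, wild-type RAD21 alone had 2 weak peaks, 123 bp and 782 bp into the gene, with folds of 2.39 and 2.03 at the 4.05 and 0.46 percentile. The second overlapped the microRNA gene Mir3081, whose start is 14 bp from its summit. Upstream, the nearest CTCF peak was 85.2 kb away in replicate 2 and 158 kb in replicate 1.

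Hhip, which encodes a membrane protein that sequesters Hedgehog ligands, covers chr8:79965851-80058006 on the minus strand. It had no CTCF peak and no RAD21 peak of the transgenic limbs within 5 kb. Wild-type RAD21 had peaks 21 bp and 467 bp into the gene, both in non-coding exon sequence, with folds of 2.56 and 2.98 at the 7.63 and 18.5 percentile. The nearest CTCF peak downstream was 12.7 kb away in replicate 1, with a fold of 5.66, and 12.8 kb away in replicate 2, with a fold of 7.51. Upstream there was none for 425 kb, a distance that 8.87% of all gene sides reached, and there replicate 2 of both antibodies and wild-type RAD21 each had a peak, with folds of 5.56, 7.51 and 6.91. In replicate 1 the first CTCF peak was at 435 kb.

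Smo, the transmembrane transducer, lies at chr6:29735503-29761365 on the plus strand and is 25.9 kb long. Its intron 9 held a site with CTCF folds of 6.95 and 9.56, RAD21 in replicate 2 at 5.42, and wild-type RAD21 at 4.49. This was the 58.7 and 72.3 percentile for CTCF, 17.2 for RAD21 and 48.7 for wild-type RAD21, so RAD21 of the transgenic limbs stood lower in its list than CTCF in either of its own. Past the gene end, 1445 bp downstream, CTCF was called in replicate 1 alone, at 4.35, together with wild-type RAD21 at 3.96. The remaining site, in intron 1 and 12963 bp from the start, had a CTCF peak in replicate 2 alone, at 5.12, in sequence that is 98.0% repeat-masked. Upstream, 23.2 kb away, a site stood at the 94.7 and 92.7 percentile of the CTCF lists, with folds of 10.1 and 12.52, and also had RAD21 of replicate 2 at 8.75 and wild-type RAD21 at 6.90.

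The intron 1 site of Smo changed with the genome used for mapping. On the custom genome with the transgene, for which the authors kept all reads, including those of repeated sequence, both CTCF and both RAD21 replicates had peaks there. In peaks overlapping the site, the folds were 9.92 and 8.95 for CTCF replicates 1 and 2 and 11.0 for RAD21 replicate 2. The overlapping peak of RAD21 replicate 1, at 9.80, had its summit 12457 bp from the start. Further peaks lay up to 13400 bp from the start. Of the 31 pairs of a site and a list with a peak on mm10 in the 8 genes outside chromosomes 2 and 10, 30 were also called on the custom genome. Of the 8 peaks found on the custom genome alone, 7 were at this Smo intron and 1 lay past the Boc end, 78260 bp from the start, with a fold of 4.53 in CTCF replicate 2. The part of multiply mapped reads in these peaks was not tested.

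Kif7, the kinesin that organises Gli and Sufu at the tip of the primary cilium, lies at chr7:79698098-79715720 on the minus strand. Its 1 site was in a coding exon, 5485 bp from the start, with CTCF alone at folds of 5.55 and 5.82, the 28.2 and 22.8 percentile. The start of an antisense gene, 9330171B17Rik, was 48 bp from the summit, and the 201 bp around it were 78.1% G or C. CTCF was nearby on both sides, 11.5 kb upstream at folds of 4.10 and 4.64, and 18.7 to 18.8 kb downstream at 5.60 and 7.63. Wild-type RAD21 was called at the upstream CTCF site, at 2.64. RAD21 of replicate 2 lay farther out than these CTCF peaks, 13.6 kb upstream at 8.22 and 48.9 kb downstream at 7.82. CTCF was called there as well in replicates 1 and 2, at 5.48 and 6.68 upstream and at 6.17 and 7.51 downstream.

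Sufu, which holds Gli proteins in the cytoplasm, was the gene with most sites. It covers chr19:46396896-46488804 on the plus strand, 91.9 kb. The promoter site, chr19:46396589-46397128, had CTCF folds of 6.79 in replicate 1 and 12.6 in replicate 2, the 55.2 and 92.9 percentile, with RAD21 of replicate 2 at 7.37 and wild-type RAD21 at 6.67. Its summits lay between 84 bp and 176 bp before the start, and each RAD21 summit was within 32 bp of the nearest CTCF summit of either replicate. The start of another protein-coding gene, Actr1a, was 1000 bp from the CTCF summit of replicate 2. In intron 3, 47540 bp from the start, CTCF was at 4.88 and 7.98, RAD21 at 8.50 and wild-type RAD21 at 5.26. In intron 6, 55760 bp from the start, CTCF was at 7.21 and 11.9, RAD21 at 10.9, the 88.5 percentile, and wild-type RAD21 at 6.25. These 3 sites had CTCF in both replicates, RAD21 in replicate 2 and wild-type RAD21, and no other gene of the 9 had more than 1 such site. The other 2 had CTCF alone, also in both replicates. One was in intron 3, 38869 bp from the start, at 6.41 and 9.12. The weaker, 4784 bp before the start and inside the actin-related gene Actr1a, was at 4.63 and 4.67. It was the outermost site that the 5 kb window took in, while the CTCF peak 5.24 kb past the Gli1 end, at 4.07 and 4.81, just missed it.

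The motif of the Sufu promoter pointed along the gene, and those at 47540 bp and 55760 bp pointed back against it, so these RAD21-bound sites faced each other across the 5′ part of the gene. The match at 55760 bp is among those that the search within 100 bp no longer called. The 250 bases before the Sufu start, chr19:46396646-46396895 on the plus strand in RefSeq GRCm38.p6, are shown because the CTCF, RAD21 and wild-type RAD21 summits of the promoter site all fall within them. Capitals mark the match.
Sufu promoter: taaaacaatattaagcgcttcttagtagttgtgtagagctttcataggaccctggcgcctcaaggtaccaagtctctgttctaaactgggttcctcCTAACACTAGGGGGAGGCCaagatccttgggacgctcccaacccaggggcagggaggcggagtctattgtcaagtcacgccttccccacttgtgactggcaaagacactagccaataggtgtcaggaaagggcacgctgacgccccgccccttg
Its 1 kb was ordinary in G and C, at 54.8% against a median of 54.7% over all starts, and had a CpG ratio, observed over expected, of 0.80 against a median of 0.55.

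Among the Gli factors, the 3 genes differed in where CTCF was called. Gli1, the activator that is itself a target of the pathway, is short, chr10:127329882-127341974 on the minus strand. Its promoter site lay 431 bp before the start, at chr10:127342173-127342680, with CTCF at 7.55 in replicate 1 and 6.32 in replicate 2 and wild-type RAD21 at 3.54. The CTCF percentile was 69.1 in replicate 1 and 31.3 in replicate 2, a gap of 37.7. Intron 2, 2908 bp from the start, had CTCF at 5.56 and 6.50. The remaining intronic sites were each called in a single replicate, 8705 bp from the start at 6.47 in replicate 2 and 9657 bp from the start at 5.68 in replicate 1. So the promoter and intron 2 were the sites on which the replicates met. No RAD21 peak of the transgenic limbs was within 100 kb on either side, the nearest of replicate 2 being 101 kb downstream and 167 kb upstream. An antisense gene, Gm47200, overlaps 3 of the 4 sites and starts 74 bp from the fourth.

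Gli2, the main activator of the family, is 219 kb long, chr1:118834132-119053619 on the minus strand. Its promoter site, at chr1:119053515-119053877, had CTCF at 8.59 and 10.2, the 83.5 and 78.5 percentile, and in replicate 1 this was the highest CTCF fold of any site of the 9 genes. Wild-type RAD21 was at 5.59, with its summit 1 bp from a CTCF summit, and no RAD21 peak of the transgenic limbs was called there. A second wild-type RAD21 peak, at 2.13, lay 972 bp into the gene, just inside the 1 kb promoter window. Intron 2 had CTCF in replicate 2 alone, 83314 bp from the start, at 6.21. The nearest RAD21 peaks of the transgenic limbs were 29.1 kb upstream, at 5.10 in replicate 1, and 65.1 kb downstream, at 5.12 in replicate 1 and 11.0 in replicate 2. Both of these flanking sites also had CTCF in replicates 1 and 2, at 6.84 and 9.22 upstream and at 4.35 and 8.88 downstream. So within 5 kb of Gli2, CTCF was called at the start and in intron 2 without RAD21 of the transgenic limbs. The 2 proteins were called together farther out, at these flanking sites. Nearer to the gene there was CTCF without any RAD21 peak on both sides. It was called in both replicates 21251 bp upstream, and in replicate 1 alone 11.5 kb downstream. The 250 bases before the Gli2 start, chr1:119053620-119053869 on the minus strand in RefSeq GRCm38.p6, hold the match in capitals.
Gli2 promoter: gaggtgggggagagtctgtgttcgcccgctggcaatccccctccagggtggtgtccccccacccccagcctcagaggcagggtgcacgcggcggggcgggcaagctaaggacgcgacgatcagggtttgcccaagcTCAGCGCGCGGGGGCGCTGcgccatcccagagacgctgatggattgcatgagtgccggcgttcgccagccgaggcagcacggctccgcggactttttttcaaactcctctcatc
RefSeq entries were found for 7 of the 9 genes, not for Gli1 and Boc. Of these 7, 6 have a match above the threshold in the 250 bases before the RefSeq start, beside 22.7% of all RefSeq promoters. They include Ptch1, Hhip, Kif7 and Gli3, which had no CTCF peak at the promoter as counted from the GENCODE start. The RefSeq start lies 7863 bp farther into the gene for Ptch1 and 488 bp farther for Gli3. No threshold was set for stretches of 250 bases, and the Gli2 match counted here is one that the search within 100 bp no longer called. The 1 kb at the GENCODE starts of these 7 genes had 54.8% to 70.0% G or C, against a median of 54.7% over all starts. This difference was not taken into account.

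Gli3, the main repressor in the limb, is the longest of the 9, 267 kb, at chr13:15463235-15730026 on the plus strand. Its CTCF site was in intron 12, 252048 bp from the start, at chr13:15715099-15715489. CTCF was at 7.57 and 7.90, the 69.6 and 53.4 percentile, RAD21 of replicate 2 at 5.32, the 15.4 percentile, and wild-type RAD21 at 4.99. At the start there was no CTCF. RAD21 of replicate 2 had a peak 155 bp into the gene, at 4.63 and the 4.55 percentile, which was absent on the custom genome. Wild-type RAD21 had a peak 1165 bp into the gene, at 2.61, just outside the promoter window. The 2 RAD21 peaks did not overlap. The Gli3 start was the richest in CpG of the 9, with 70.0% G or C and a CpG ratio of 0.94, above 94.6% of protein-coding genes. Upstream, the nearest CTCF peak was 793 kb away in both replicates, a distance that 5.31% of all gene sides reached. RAD21 was nearer on that side, at 410 kb in replicate 2 with a fold of 4.89 and at 67.9 kb in the wild-type list with a fold of 2.61. Downstream, 29.2 kb past the end, CTCF was at 6.78 and 9.86, RAD21 at 8.86 and 10.7, and wild-type RAD21 at 9.16, the 94.9 percentile of RAD21 replicate 1 and the 93.7 of the wild-type list.

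**Figure D2:**
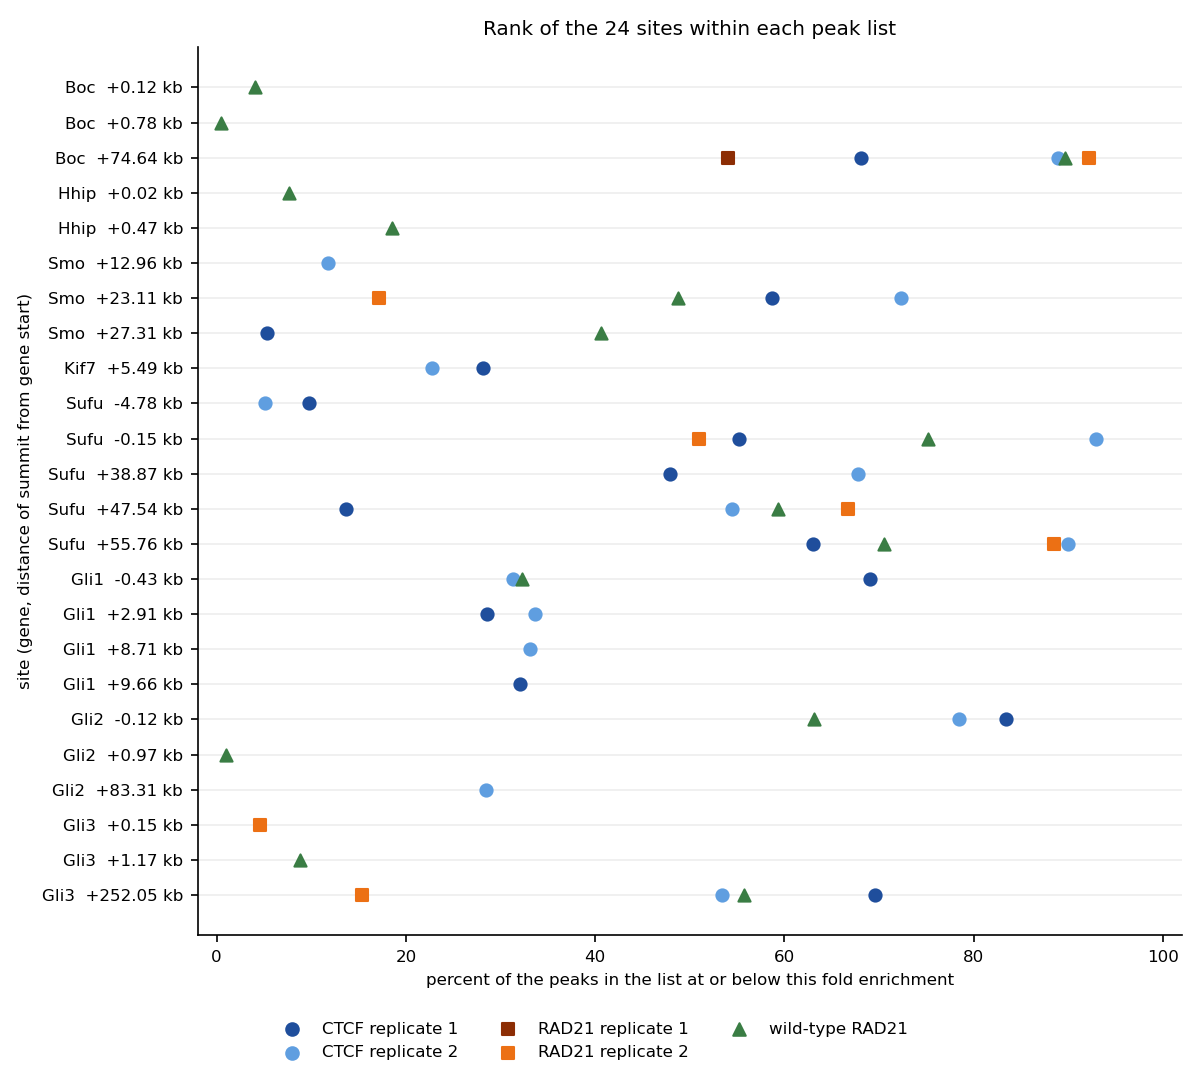
Each of the 24 sites (rows, with the distance of its summit from the gene start) by the percentile of its fold enrichment in each list that called it (horizontal axis, percent of the peaks in the list at or below that fold). Sites with CTCF spread over the whole axis, with the Boc downstream, Sufu promoter and Sufu intron 6 sites near 90 in CTCF replicate 2, while the 6 sites with wild-type RAD21 and no CTCF lie at 18.5 or lower.

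The replicates gave the same CTCF genes. In both, 7 of the 9 had a CTCF peak within 5 kb, all but Ptch1 and Hhip, beside 46.8% of all protein-coding genes in replicate 1 and 49.6% in replicate 2. In both, Sufu, Gli1 and Gli2 had one at the promoter, which is 3 of 9, beside 9.43% and 10.2% of all genes. With either replicate counted, the backgrounds were 51.9% and 11.3%. The Hedgehog genes are long, with a median of 73.8 kb against 17.4 kb for all. Among the 12424 genes in their range of lengths, 62.4% had CTCF within 5 kb. Per 100 kb of window the 9 genes had 2.51 sites of any list, against 2.15 over genes in that range. At the 12 sites called in both CTCF replicates the percentile differed by a median of 18.0 between them, from 4.62 to 40.8, and by a median of 15.0 over all 21019 such sites. A difference of that size between sites is within the spread of the replicates. With 9 genes chosen by name, these shares are a description and were not tested.

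RAD21 of the transgenic limbs was called within 5 kb of Boc in replicate 1, which is 1 of 9 beside 9.91% of all genes, and of Boc, Smo, Sufu and Gli3 in replicate 2, 4 of 9 beside 32.4%. At promoters it was called at none in replicate 1, beside 1.01%, and at Sufu and Gli3 in replicate 2, beside 4.44%. With either replicate counted, the backgrounds were 32.7% and 4.6%, and 41% for genes in the length range. Without replicate 2 only Boc was left. Of the 17 CTCF sites of the Hedgehog genes, 6 also had RAD21 of the transgenic limbs, against 47.0% of all CTCF sites.

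Wild-type RAD21 was called within 5 kb of 7 of the 9, all but Ptch1 and Kif7, beside 41.1% of all genes and 50.6% of those in the length range. At promoters it was called at Boc, Hhip, Sufu, Gli1 and Gli2, 5 of 9 beside 9.02%. The wild-type RAD21 sites with CTCF had higher folds than those without. The 9 on a CTCF site had folds from 3.54 to 8.47. The 6 without CTCF had folds from 2.03 to 2.98, below all of those, and all 6 lay within 1.2 kb of the start of Boc, Hhip, Gli2 or Gli3. When that list was cut by fold into 10 equal bins, 5 of these fell in the weakest bin and 1 in the next. In the weakest bin 26.0% of the peaks lay at a promoter and 32.1% had CTCF, in the strongest 4.18% and 99.8%. None of the 6 had a peak in either RAD21 replicate of the transgenic limbs. Of all merged sites, 12.01% were wild-type RAD21 without CTCF.

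**Figure D3:**
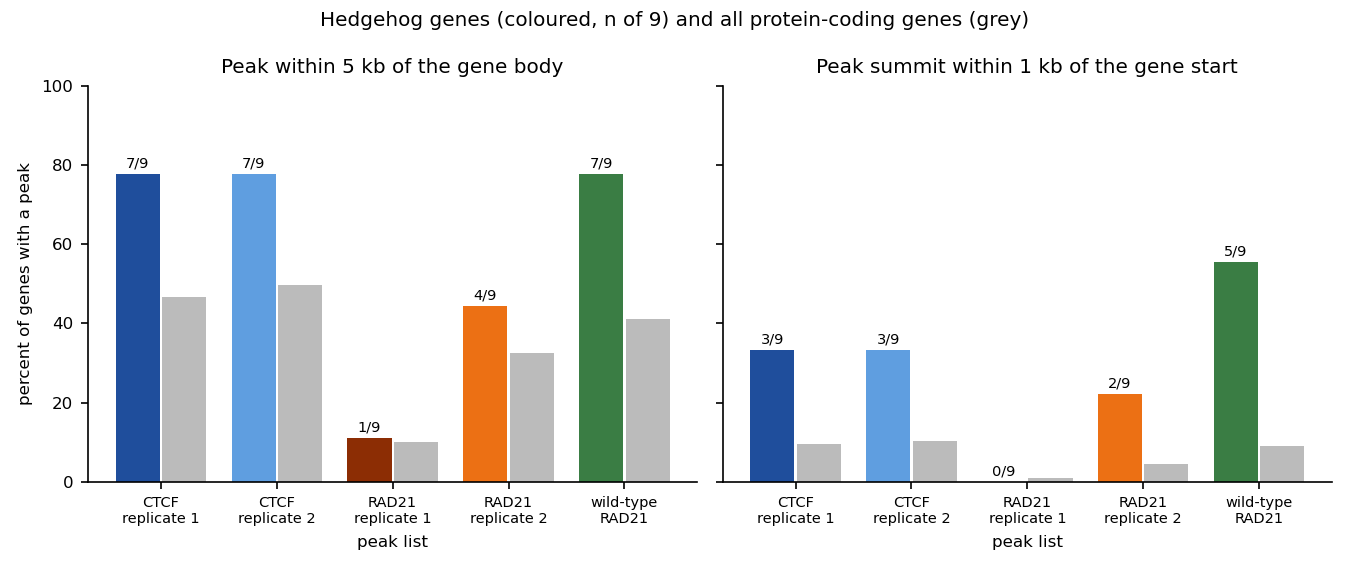
Percent of genes with a peak (vertical axis) within 5 kb of the gene body (left) and with a summit within 1 kb of the start (right) in each list, for the 9 Hedgehog genes (coloured, with the count) and all protein-coding genes (grey). The largest gap is at promoters in the wild-type RAD21 list, 5 of 9 beside 9.02%, and of those 5 genes Boc and Hhip had weak peaks without CTCF there.

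**Figure D4:**
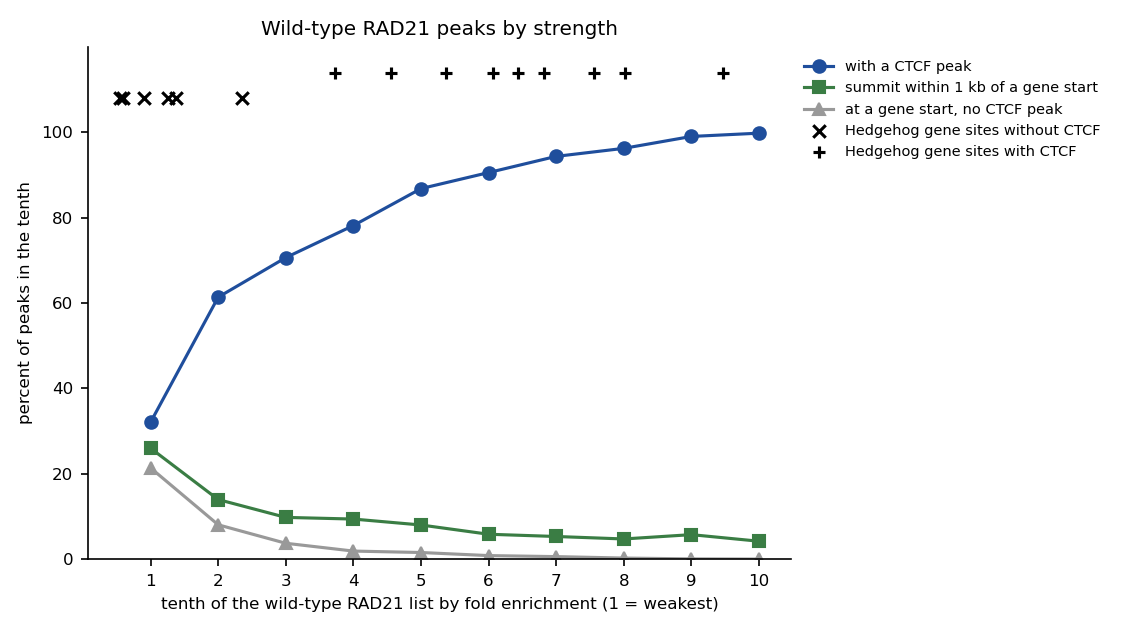
Percent of wild-type RAD21 peaks (vertical axis) with a CTCF peak (blue), at a gene start (green) and at a gene start without CTCF (grey), by 10 bins of the list from the weakest to the strongest fold (horizontal axis), with the sites of the Hedgehog genes above. The 6 sites without CTCF (crosses) all stand in the 2 weakest bins, where peaks at gene starts are most common.

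The other 30 genes of the pathway list, from ligands and their release to ciliary and kinase regulators, had CTCF within 5 kb at 21 in each replicate. RAD21 was at 5 and 18 of them in replicates 1 and 2, and wild-type RAD21 at 19. The shares of all protein-coding genes were 46.8% and 49.6% for CTCF, 9.91% and 32.4% for RAD21, and 41.1% for wild-type RAD21. Gene length was not taken into account here. Grk2, a kinase that acts on Smo, was the single gene with a CTCF promoter peak, at 6.45 in replicate 1 and 11.1 in replicate 2, which is 1 of 30 beside 8.32% of all genes with one in both replicates. It also had RAD21 of replicate 2 there, at 4.30. Wild-type RAD21 was called at the promoters of Btrc, at 2.70, and of the co-receptor gene Gas1, at 3.03, both without CTCF there. This was 2 of 30 beside 9.02% of all genes.

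Outside the gene bodies, the nearest CTCF peak of either replicate was at a median of 13.3 kb over the 18 sides of the 9 genes, against 33.2 kb over all gene sides. With CTCF replicate 1 left out the median of the 9 was 21.0 kb, against 36.4 kb over all gene sides. For RAD21 of either replicate it was 82.2 kb against 71.2 kb. Without replicate 2 it was 218 kb against 332 kb, so that the 9 genes went from farther than all gene sides to nearer. For wild-type RAD21 it was 39.1 kb against 52.6 kb. The distances ranged from 81 bp upstream of Gli2 to 793 kb upstream of Gli3 for CTCF, so the medians stand for a wide spread. The nearest CTCF peaks include the promoter sites of Sufu, Gli1 and Gli2 and the downstream sites of Boc and Smo, already counted above as sites within 5 kb.

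**Figure D5:**
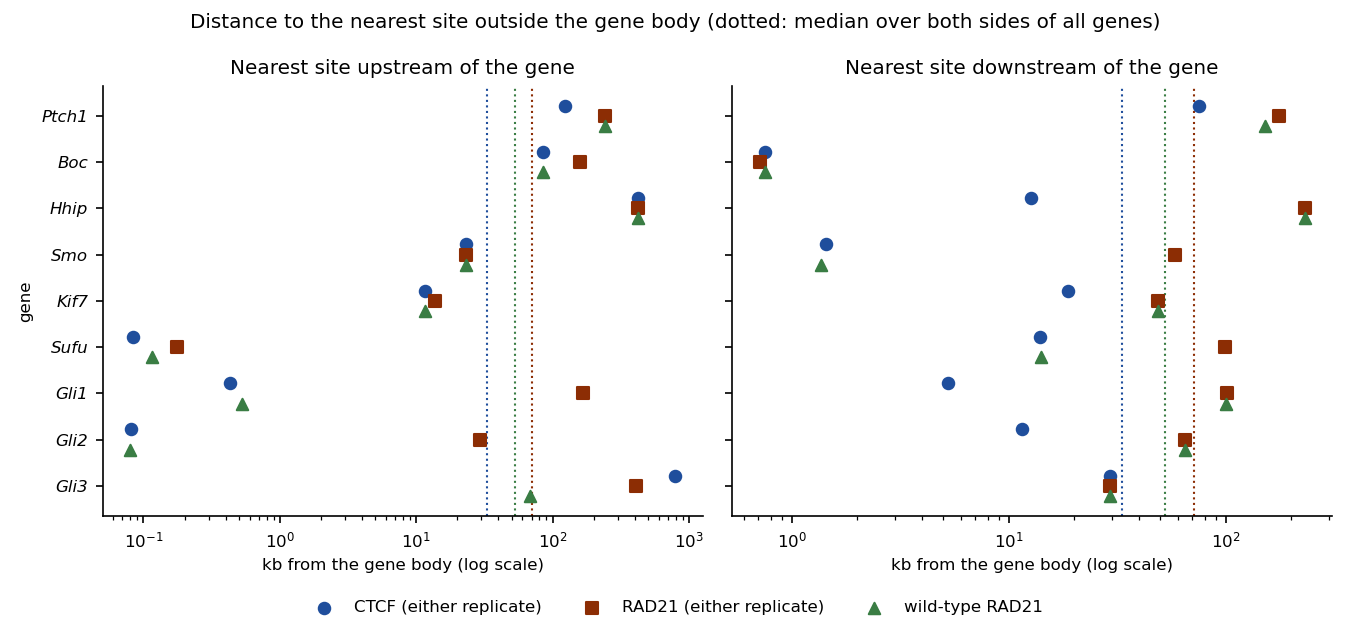
Distance (horizontal axis, kb on a log scale) from each gene body to the nearest site upstream (left) and downstream (right), for CTCF and RAD21 of either replicate and for wild-type RAD21, with the median over both sides of all protein-coding genes as dotted lines. Sufu, Gli1 and Gli2 have CTCF within 1 kb upstream, while Ptch1, Hhip and Gli3 have none within 100 kb upstream.

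Where CTCF with RAD21 and a motif was taken as a possible end of a loop, the nearest such site on each side was read with its direction. Within 50 bp of the summit, the pair faced inwards around Gli2 and Gli3, the same way for 5 genes and outwards for Smo and Gli1, beside 25.1%, 46.3% and 28.6% of all genes. The Gli2 pair, 65.1 kb to the left and 29.2 kb to the right, enclosed no other protein-coding gene over 314 kb. That of Gli3, 793 kb to the left and 29.2 kb to the right, enclosed Psma2 as well. By the search within 100 bp, Boc, Hhip and Smo also had inward pairs, 5 of the 9 beside 27.3% of all genes. The inward pairs of Gli2 and Gli3 did not depend on the search, and the count did. The right end of the Gli2 pair had RAD21 of the transgenic limbs in replicate 1 alone, at a fold of 5.10 and the 14.4 percentile. No contact was measured in these files.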

How the data were processed

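ChIPmentation for CTCF and for RAD21 was done on E12.5 limbs that carry the TgN(38-40) transgene and lack the native region, with 2 biological replicates per antibody. The authors mapped the reads to mm10 and to a custom genome and called peaks per replicate with MACS2 at default parameters. Among the tools in the submitters' processing notes are MACS2 2.1.1.20160309, cutadapt 1.16 and Bowtie2 in versions 2.3.4.1 and 2.3.5. For each peak the deposited lists hold the authors' fold enrichment, the ratio of pileup to the local expectation, and a q-value as -log10 (the p-value column was not used here). The MACS2 control is not given in the sources used here. Depth is unknown, so no interval could be given.

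Genes are those of GENCODE M21 and sequence is GRCm38, the assembly of mm10. Peaks were merged at 1 bp of overlap and ranked by fold within each list, with Python 3.11.15, numpy 2.4.6 and pandas 2.3.3. A 19 bp CTCF model was trained on 2000 strong peaks in CTCF replicate 2, passing over the top 100, outside the Hedgehog gene windows and chromosomes 2 and 10. The learning step was checked apart from this model, on 600 simulated sequences with an artificial planted motif. A separate model learned from those sequences found 100% of the planted motifs, which does not measure the accuracy of the CTCF model. Every peak of the 9 genes is named, and the 30 other pathway genes are given as counts, with those named that had a CTCF promoter peak in both replicates. Btrc and Gas1 were named after their values were seen. The genes, lists and motif search were chosen with earlier results of these data known. No test between groups was made, as a single genotype has replicates. Alternatives were stricter q-values, lists cut to equal length, other windows and definitions of promoter and overlap, each replicate left out, and the custom genome.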

Additional observations from a re-analysis of the deposited data

How the results depend on the processing

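No paired analysis was possible because the results are counts and distances from peak lists and come from no test, and no source pairs the replicates of the antibodies. Of 88 recomputed values, 60 stayed within 1.5 times the reported count or within the spread of the replicates. For the median distances that spread was the SD between replicates, 5366.94 bp for CTCF and 96367.7 bp for RAD21. The RAD21 spread exceeds the reported RAD21 median of 82177 bp, so even a distance of 150348 bp was counted as unchanged. CTCF at promoters stayed at 2 or 3 genes throughout. With peaks of a -log10 q of at least 5, RAD21 of the transgenic limbs was left at 2 genes and 1 promoter, and the median CTCF distance was 20972.5 bp. At a minimum of 10, the values were 2 genes and 0 promoters for RAD21, 11 sites, 3 of them with CTCF and RAD21, and distances of 69269.5 bp for CTCF and 150348 bp for RAD21. With each list cut to the 4102 peaks of the shortest, CTCF was left at 3 genes, RAD21 at 2 genes and 0 promoters, wild-type RAD21 at 1 gene and 0 promoters, with 4 sites, 2 of them with both proteins, and distances of 122960 bp for CTCF and 213269 bp for RAD21. With peaks of both replicates alone, RAD21 was left at 1 gene, 0 promoters and 1 joint site, with distances of 20972.5 bp for CTCF and 218390 bp for RAD21. On the custom genome RAD21 was at 1 promoter. With a replicate left out, RAD21 ranged from 1 to 4 genes and from 0 to 2 promoters, joint sites from 1 to 6, the CTCF distance from 13404 to 20994 bp and the RAD21 distance from 82177 to 218462 bp. The lowest counts for RAD21 and joint sites and the largest RAD21 distance came without RAD21 replicate 2, whose list is the longer. The largest CTCF distance came without CTCF replicate 1. Ranked by q in place of fold, 7 of 52 peaks moved by over 10 percentage points in their list. Depth is unknown, and a site absent from a list may only be below its threshold.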
